A study of Xenopus laevis with 12 samples.

Results

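The lowest of 3 doses of retinoic acid (RA), 25 nM, was compared with vehicle in foregut endoderm of Xenopus laevis, the African clawed frog. The comparison takes the 3 libraries treated with 25 nM RA and the 3 treated with 0.1% DMSO, 6 of the 12 libraries of the series, and all 44478 gene IDs of the count table. Every library came from wild-type embryos of the NXR_0031 stock. Endoderm of the foregut was cut out at Nieuwkoop-Faber stage 15 and cultured at 15 °C to stage 25 for 16 hours, and 8 explants were pooled for each replicate. The remaining 6 libraries received 200 or 500 nM RA, 3 at each dose. The labels give DMSO for the controls and do not say whether the RA groups held the same amount of solvent. Whether the replicate pools stem from different clutches or dates is likewise not in the labels, so p-values here cover only the spread among these pools, which may be technical.

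Retinoic acid is made in the embryo from vitamin A by aldehyde dehydrogenases and is broken down by Cyp26 enzymes. It enters the nucleus and binds retinoic acid receptors, which sit on DNA with retinoid X receptors, keep target genes down without the ligand and switch them on with it. In vertebrate embryos it marks posterior position, for example through Hox genes, and in the foregut it helps set out the domains from which lung, liver and pancreas arise. The files give IDs of gene models without names, and 0 of the 44478 IDs matched the RefSeq genes of Xenopus_laevis_v10.1. For this reason no pathway, Hox or endoderm marker could be looked up, the labelled tissue was not checked against its markers, and no sequence is shown. The response is described over all IDs, and 4 IDs are given by name as examples.

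Total counts were 24032151 to 27961047 at 25 nM RA and 17782601 to 24513744 in DMSO. At least 1 count was found for 29729 to 30049 IDs at 25 nM RA and for 29604 to 30200 IDs in DMSO, so the number of detected IDs overlapped between the groups. Of the 44478 IDs, 9957 had no count in any of the 6 libraries. A filter on low counts left 24454 IDs for testing. Of the 20024 IDs left out, 10068 had some count in these libraries, and the highest group mean among them was 0.757 CPM (counts relative to the scaled library size). Among IDs with a mean of at least 10 counts, 32 shared identical counts with another ID in all libraries, and they held 2.88% to 9.15% of the counts at 25 nM RA and 3.74% to 5.59% in DMSO. The highest share was that of 25 nM replicate 3.

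At 25 nM RA, 4797 IDs rose and 4974 fell against DMSO at an adjusted p under 0.05 in edgeR's quasi-likelihood test. These were 19.6% and 20.3% of the IDs tested, together 40.0%. The response was broad and mostly small. Called IDs changed by a median of 0.43 on the log2 scale, all IDs tested by 0.25, with a median standard error of 0.13. Of the called IDs, 35.1% changed less than 1.25-fold and 63.1% less than 1.5-fold. A change of at least 2-fold was reached by 816 higher and 1143 lower IDs, 3.34% and 4.67% of the IDs tested. With only the 6 libraries compared in the filter and fit, these were 763 and 984. When the test asked for a change beyond 1.2-fold rather than for any change, 2274 IDs were called higher and 1879 lower in edgeR.

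Rises and falls differed in the size of their largest members. To keep low counts from setting a fold, each count under 3 was set to 3 before these folds were computed. Called changes of at least 1.25-fold were 3476 higher and 2872 lower. At 4-fold or more there were 117 higher and 474 lower IDs, at 8-fold or more 23 and 199, and at 16-fold or more 2 and 82. The lower IDs made up 45.2% of the changes of at least 1.25-fold and 89.6% of those of at least 8-fold. The libraries at 25 nM RA were deeper, so that 3 counts stood for 0.104 to 0.124 CPM there and for 0.117 to 0.165 CPM in DMSO, so a fall could be followed slightly farther down than a rise. Thinned to the total of the shallowest library, changes of at least 8-fold were 20 higher and 141 lower.

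**Figure D1:**
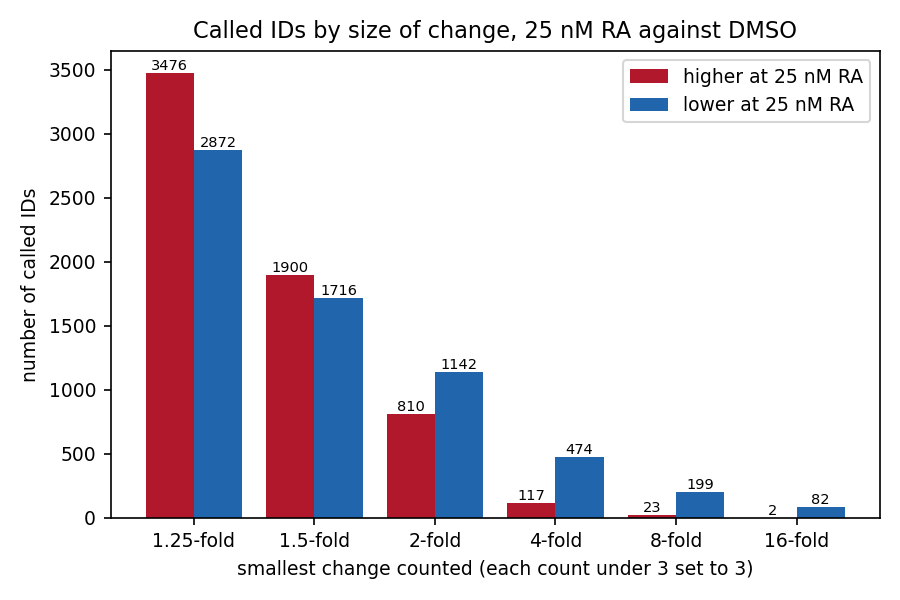
Number of called IDs (vertical axis) whose change between 25 nM RA and DMSO reached at least the fold on the horizontal axis, with every count under 3 set to 3. Red bars are IDs higher at 25 nM RA and blue bars IDs lower; the higher IDs lead at 1.25-fold (3476 against 2872) and the lower IDs at 8-fold (199 against 23).

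XBXL10_1g32591 was the largest rise among IDs of at least 5 CPM in the higher group whose groups did not overlap. It stood at 123, 128 and 133 CPM in the 3 libraries at 25 nM RA and at 7.90, 6.59 and 8.01 CPM in the 3 DMSO libraries. All libraries at 25 nM RA lay far above all DMSO libraries, and the spread within each group was small. The means were 128 ± 5.22 CPM at 25 nM RA and 7.50 ± 0.793 CPM in DMSO (SD, n = 3 each), which puts the log2 fold change at 4.08 (SE 0.0662, edgeR adjusted p = 3.24e-50). Scaled for transcript length, it had 79.98, 83.01 and 84.44 TPM at 25 nM RA and 5.18, 4.25 and 5.24 TPM in DMSO. Tested directly between doses, it was lower at 25 nM than at 200 nM by a log2 difference of -0.25 and lower than at 500 nM by -0.73, with edgeR adjusted p-values of 3.13e-06 and 1.68e-21.

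The share of IDs called depended on their level. IDs were placed in 6 classes by their mean CPM over the 6 libraries, with limits at 1, 4, 16 and 64 CPM and a top class from 4 times the last of these. Under 1 CPM, 21.3% of 4393 IDs were called, from 1 to 4 CPM 28.2% of 5317, and from 4 to 16 CPM 38.3% of 6773. From 16 to 64 CPM the share was 53.3% of 5670 IDs, in the class from 64 CPM 72.7% of 1791, and in the top class 82.0% of 510. The median standard error ran the opposite way, at 0.503 on the log2 scale under 1 CPM and 0.032 in the top class. The same change was thus more readily called in a high ID than in a low one.

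The fitted size of the change, which includes estimation error, went down with level until about 16 CPM and then stayed level. The median size over all IDs tested was 0.56 on the log2 scale under 1 CPM, 0.33 from 1 to 4 CPM and 0.22 from 4 to 16 CPM. It was 0.17, 0.18 and 0.18 in the 3 upper classes. The median standard error went down too, at 0.503, 0.238 and 0.119 in the 3 lower classes. How much of the fall in size is error was not tested. Called changes of at least 2-fold took 20.4% of the IDs tested under 1 CPM, 4.31% from 4 to 16 CPM and 1.18% in the top class. Called IDs in the lowest class changed by a median of 1.99, since smaller changes are seldom called at such a standard error. Under 1 CPM, 291 IDs were at least 2-fold higher and 607 lower, while in the class from 64 CPM 22 were higher and 2 lower. An ID low in every group does not pass the filter, so the lowest class holds IDs that reached the count minimum in at least 3 libraries of the series. With only the 6 libraries compared, 237 IDs of that class were at least 2-fold higher and 449 lower.

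The direction also varied with level. Of the called IDs, 33.4% rose in the class under 1 CPM, 59.3% from 4 to 16 CPM and 34.2% in the top class. The same order was seen when the classes were set by the libraries at 200 and 500 nM RA, with 29.1%, 57.3% and 38.3%. Those libraries are in neither group compared. With upper-quartile scaling, which moved the median log2 fold change of all IDs to -0.026, the shares were 31.8%, 55.1% and 31.8%. Over all levels, 49.1% of the called IDs were higher with the main scaling and 45.1% with upper-quartile scaling. The scaling sets where no change lies, so this balance depends on it and is not a result about RA. The variation with level was not particular to the comparison with DMSO. In the same 3 classes, 5.98%, 64% and 41.6% of the IDs called between 25 and 200 nM RA were higher at 25 nM. Between 25 and 500 nM RA the shares were 20.7%, 57.2% and 24.6%. All of these comparisons share the 25 nM libraries, and the cause was not tested.

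**Figure D2:**
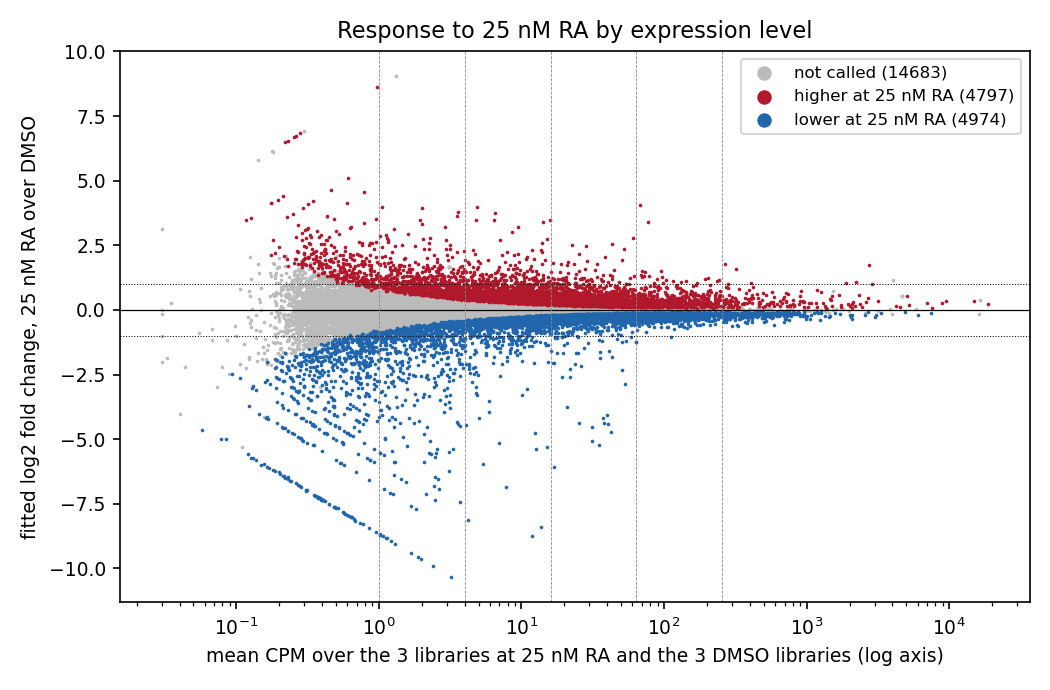
Each point is 1 of the 24454 IDs tested: mean CPM over the 6 libraries (horizontal, log axis) against the fitted log2 fold change of 25 nM RA over DMSO (vertical). Red points were called higher (4797) and blue points lower (4974); dotted lines mark 2-fold and dashed lines the level classes. The lower points reach farther from 0 than the higher ones, and the slanted lines of blue points at the lower left are IDs with no or few counts at 25 nM RA, whose fitted fold depends on a prior count.

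Differences between the groups were set beside differences between replicates. Over all IDs tested, the median size of the log2 CPM difference between libraries was 0.28 for 25 nM RA against DMSO, 0.13 between libraries at 25 nM RA and 0.15 between DMSO libraries. Under 1 CPM these values were 0.69, 0.48 and 0.52, so that for low IDs most of a difference between libraries of different groups was also seen between replicates. In the top class they were 0.18, 0.03 and 0.03. There the difference between the groups was several times the spread between replicates.

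**Figure D3:**
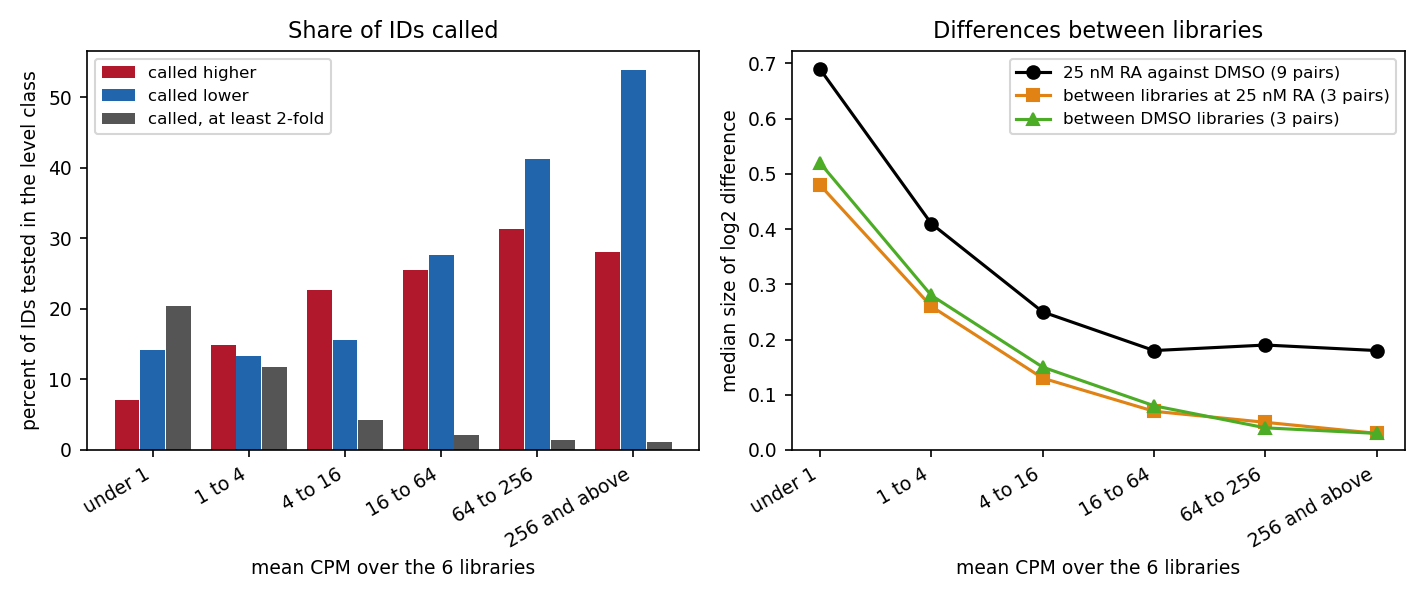
Left, percent of the IDs tested in each class of mean CPM (horizontal) that were called higher (red), lower (blue) or with at least a 2-fold change (grey) at 25 nM RA against DMSO. Right, median size of the log2 CPM difference between libraries of different groups (black circles) or of the same group (orange squares and green triangles); the black line stays at 0.18 to 0.19 from 16 CPM upwards while the replicate lines go down to 0.03.

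Replicates were close to each other within both groups. Spearman correlations across the IDs tested were 0.992 to 0.993 between libraries at 25 nM RA, 0.990 to 0.991 between DMSO libraries and 0.969 to 0.970 between the groups. IDs that stood at least 2-fold apart numbered 914 to 1044 for pairs at 25 nM RA, 1065 to 1153 for DMSO pairs and 2719 to 2907 for pairs of different groups. The share of the transcript pool that would have to move to turn 1 library into another, from the TPM values, was 3.44% to 4.76% within 25 nM RA and 2.65% to 3.02% within DMSO. Between the groups it was 8.63% to 10.7%. The 3 highest of these 9 values belonged to 25 nM replicate 3, the library with the highest share of counts in identical IDs, and the part of those IDs in them was not tested.

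To compare differences that share no library, the 6 libraries were set in 3 pairs, each a library at 25 nM RA minus the DMSO library of the same number. The number serves only to form the pairs and marks no shared origin in the labels. Across all 24454 IDs tested, Pearson correlations between the log2 CPM differences of these pairs were 0.688 to 0.695, as a description, since IDs are not independent. They went up with level, being 0.552 to 0.560 under 1 CPM and 0.935 to 0.959 in the class from 64 CPM. In the top class they were 0.965 for pairs 1 and 2, 0.806 for pairs 1 and 3 and 0.9 for pairs 2 and 3. All 3 pairs had the same sign for 60.6% of the IDs tested and for 97.8% of those called, a choice made from the same values. The median difference of the IDs called higher was 0.46 to 0.48 in the 3 pairs, and that of the IDs called lower was -0.38 to -0.37.

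**Figure D4:**
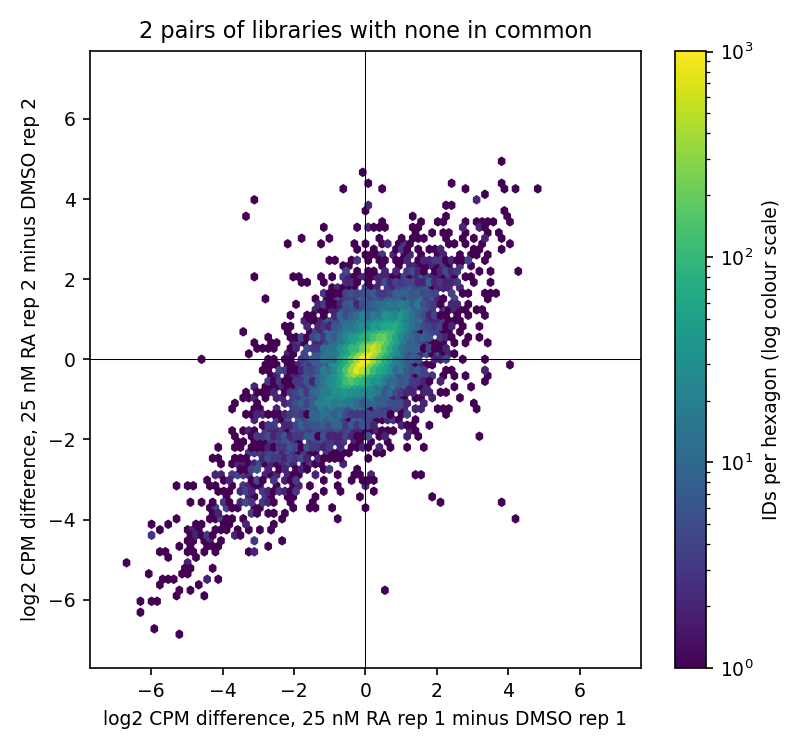
Log2 CPM difference of 25 nM RA replicate 1 minus DMSO replicate 1 (horizontal) against that of replicate 2 minus replicate 2 (vertical) for the 24454 IDs tested; colour gives the number of IDs per hexagon on a log scale. The cloud runs along the diagonal (Pearson 0.688) and reaches farther into the lower left, where both pairs fell, than into the upper right.

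Of the 9771 called IDs, 9218 had 3 values at 25 nM RA that did not overlap with the 3 values in DMSO, 94.3% of them and 37.7% of the IDs tested, beside the 40.0% of IDs tested that were called and the 47.6% without overlap, called or not. Among IDs not called, 2421 did not overlap either. Of the called changes of at least 2-fold, 1880 showed no overlap and 79 did. The medians over these larger changes are given as a description, since the IDs were chosen by a test on the same libraries. The median of the IDs at least 2-fold higher was 2.49, 2.57 and 2.51 CPM at 25 nM RA and 0.858, 0.906 and 0.899 CPM in DMSO. The median of those at least 2-fold lower was 0.312, 0.332 and 0.314 CPM at 25 nM RA and 1.45, 1.54 and 1.45 CPM in DMSO. Leaving out any 1 of the 6 libraries gave 8671 to 8770 called IDs in edgeR.

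The weight of the response in the transcript pool was measured by TPM. The IDs called higher held 31.4%, 30.9% and 30.3% of the pool at 25 nM RA and 23.7%, 23.6% and 23.8% in DMSO. The IDs called lower held 42.4%, 41.7% and 40.8% at 25 nM RA and 49.3%, 48.7% and 49.0% in DMSO. The groups did not overlap in either share, and since the IDs were chosen by these values, this is a description. IDs at least 2-fold higher held 2.05% to 2.14% of the pool at 25 nM RA and 0.834% to 0.845% in DMSO. Those at least 2-fold lower held 0.136% to 0.140% at 25 nM RA and 0.620% to 0.645% in DMSO. Strong changes thus took 14.3% of all gains and 5.68% of all losses of TPM, and the rest came from changes under 2-fold or from IDs not called. The 10 largest gains held 26.8% of the gain, and the 10 largest losses 8.73% of the loss. These were taken from the group means over all IDs, called or not, so a single library can weigh in them. Of the 32 IDs of identical counts, all tested, 0 were called, beside 40.0% of all IDs tested. The IDs of identical counts held 9.15% of the counts in 25 nM replicate 3. Their part in the largest gains was not tested.

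A switch was defined by level: an ID was off under 0.1 CPM in each library of a group and on at 1 CPM or more in each library. By this definition 2 IDs were switched on at 25 nM RA and 48 were switched off, counted over all 44478 IDs. All 48 were called lower in edgeR, where 20.3% of the IDs tested were called lower and 4.67% were at least 2-fold lower. The definition itself favours such calls. Between 2 libraries of a group, 11 to 20 IDs stood on opposite sides of both limits, with 4 to 11 in either direction. Between a library at 25 nM RA and a DMSO library, 110 to 126 IDs were off at 25 nM RA and on in DMSO, and 14 to 21 the other way. Both lay above the 4 to 11 seen in either direction within groups, the first by far more than the second.

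The counts depended on the limits. With off set at 0 counts, 2 IDs were switched on and 21 off. With off under 0.25 CPM, 7 were on and 100 off. With on from 0.5 CPM there were 5 and 93, and with on from 2 CPM 0 and 20. With all libraries thinned to the same total count, that of the shallowest, the numbers were 2 and 45. More IDs were switched off than on at each of these settings. Leaving out any 1 library gave 2 to 3 switched on and 51 to 63 switched off, since fewer libraries then have to meet the limits. Without any limit on level, 133 IDs had counts in all libraries at 25 nM RA and none in DMSO, and 238 had counts in all DMSO libraries and none at 25 nM RA. In bulk samples, fewer cells of a type and less RNA per cell cannot be told apart.

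The 2 IDs switched on were low. XBXL10_1g11826, the higher of them, had 1.45, 1.41 and 5.06 CPM at 25 nM RA, from 42, 34 and 129 counts, and 0 counts in all 3 DMSO libraries. Replicate 3 stood well above the other libraries at 25 nM RA. The mean was 2.64 ± 2.10 CPM at 25 nM RA (SD, n = 3), at least 19.0-fold higher than 3 counts per library in DMSO, but the edgeR adjusted p was 0.11. Its TPM was 117.15, 96.85 and 340.29 at 25 nM RA, high for such counts, because the effective length implied by counts and TPM was 0.91% of the median ID's. At the other doses it had 9.16, 0.782 and 0.192 CPM at 200 nM and 0.477, 0 and 0.269 CPM at 500 nM. Its highest values were thus in 200 nM replicate 1 and 25 nM replicate 3, the libraries with the highest shares of counts in identical IDs, 15.6% and 9.15%, and their part was not tested. The other ID had 2.25, 1.49 and 2.08 CPM at 25 nM RA and 0 counts in DMSO, with an edgeR adjusted p of 3.18e-12.

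The 48 IDs switched off were also mostly low in DMSO, with a median of the group means of 2.20 CPM and a range of 1.11 to 23.7 CPM. In DMSO 44 of them had means under 5 CPM. At 25 nM RA, 21 had no count in any library, which puts the falls of these IDs at no less than 10.4-fold to 55.8-fold, taken against 3 counts per library. All 48 together had 23, 19 and 21 counts at 25 nM RA and 3266, 2601 and 3806 counts in DMSO. The definition fixes low values in every library at 25 nM RA and high values in every DMSO library, so these sums are a description. They made up 0.0123% to 0.0127% of the TPM pool in DMSO.

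XBXL10_1g35623 had the highest DMSO level of the IDs switched off. It stood at 0.0346, 0.083 and 0.0392 CPM at 25 nM RA, from 1, 2 and 1 counts, and at 24.3, 21.5 and 25.4 CPM in DMSO, from 538, 392 and 650 counts. The 4 counts at 25 nM RA came to 0.213% of the DMSO level (exact 95% interval 0.0579% to 0.546%, counting error only). The edgeR adjusted p was 0.00068 in the fit of all 12 libraries, and 7.6e-66 in the fit of the 6 libraries compared. XBXL10_1g31663 had the largest fitted fall among IDs of at least 5 CPM whose groups did not overlap. Without counts at 25 nM RA its fitted fold depends on a prior count, so this rank is one of the fit only. It had 0 counts in all 3 libraries at 25 nM RA and 6.01, 6.42 and 6.88 CPM in DMSO, a level at least 55.8-fold lower at 25 nM RA, with edgeR adjusted p-values of 0.00317 in all 12 libraries and 2.39e-37 in the 6. Over the 48 IDs, the highest edgeR adjusted p was 0.0231 with 12 libraries and 4.64e-10 with 6. The 48 IDs, these named ones included, were chosen by their values in the same 6 libraries. Low p-values are thus favoured by the choice and are given as a description.

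The fit of 12 libraries shares its spread with the 200 and 500 nM libraries, and the same IDs varied there. The median CPM of the 48 IDs was 2.21, 2.20 and 2.19 in the DMSO libraries, 0 in each library at 25 nM, 3.76, 4.40 and 2.61 at 200 nM, and 0.874, 0 and 0.627 at 500 nM. At 200 nM RA, 44 of the 48 were at 1 CPM or more in all 3 libraries, and the group mean of 33 was above that of DMSO. At 500 nM the libraries did not share a level: replicate 2 had no count for 33 of the IDs and 51 counts over all 48, while replicates 1 and 3 had 2386 and 1001. The IDs were chosen by their values at 25 nM and in DMSO, and the comparison of 500 with 200 nM RA sets neither group against another. In it 43 of 48 were called lower at 500 nM and 1 higher in edgeR. Of all IDs tested, 15.1% were lower and 14.0% higher, together 29.1%. The 25 nM and DMSO libraries still enter the filter, the scaling and the shared spread of this fit. The 48 IDs also went down together in 500 nM replicate 2, so they are not independent and the count is a description. The number lower was 33 to 45 when any 1 of those 6 libraries was left out, and 45 without 500 nM replicate 2.

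**Figure D5:**
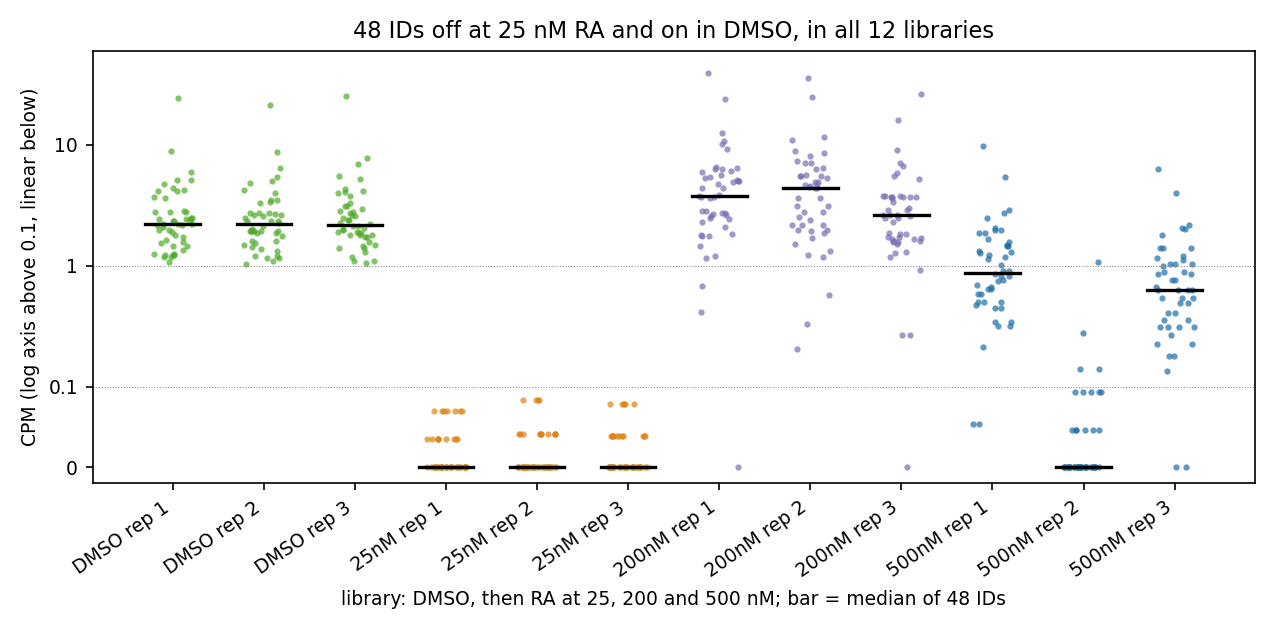
CPM of the 48 IDs that were under 0.1 CPM in each library at 25 nM RA and at 1 CPM or more in each DMSO library (vertical axis, logarithmic above 0.1 and linear below), in all 12 libraries ordered by dose; each point is 1 ID and each bar the median. The IDs lie near 0 in the 3 libraries at 25 nM RA, as do most of them in 500 nM replicate 2. At 200 nM RA the group mean of 33 of the 48 is above that of DMSO, while a few IDs lie far below it.

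A direct comparison between doses asked where 25 nM RA differed from the higher doses. The DMSO libraries are not among the groups compared, but they enter the filter, the scaling and the shared spread of the fit. With 200 nM RA as the other group, edgeR called 2364 IDs higher at 25 nM (9.67% of the IDs tested) and 2504 lower (10.2%), together 19.9%. At least 2-fold higher were 91 (0.372%) and at least 2-fold lower 904 (3.70%). Without 200 nM replicate 3 these numbers were 142 and 948, and without 200 nM replicate 2 they were 60 and 830. With 500 nM RA as the other group, edgeR called 1988 IDs higher at 25 nM (8.13%) and 2164 lower (8.85%), together 17.0%. Here 330 (1.35%) were at least 2-fold higher at 25 nM and 490 (2.0%) at least 2-fold lower. Without 500 nM replicate 1 these numbers were 346 and 385, and without 500 nM replicate 2 they were 294 and 561. Without 25 nM replicate 1 they were 317 and 371.

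The IDs at least 2-fold changed at 25 nM RA against DMSO had these values at the higher doses, each against the same DMSO libraries. The median log2 fold change of the 816 higher IDs was 1.40 for 25 nM, 1.10 for 200 nM and 1.44 for 500 nM. The 1143 lower IDs had medians of -1.99, -0.25 and -1.39. Among them, the 48 IDs switched off differed between the libraries at 500 nM, with 2386, 51 and 1001 counts in replicates 1, 2 and 3. Whether the median at 500 nM holds in each library was not tested. The medians at 25 nM are favoured by the choice, since the IDs were selected by 25 nM against DMSO. The medians at 200 and 500 nM use the same DMSO libraries, so the choice can move them the same way. All are given as a description.

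Transcript length is a feature that the comparison did not use. The count divided by TPM gives a relative effective length, available for 15186 IDs with at least 50 counts and 1 TPM in each of the 6 libraries. Over all levels, the share called was 46.1% to 48.6% in the 5 length classes of equal size, without a steady order by length. The classes differed in level, with medians of 14.8 to 22 CPM, and the share called depends on level. The direction followed length: 34.8% of the called IDs rose in the shortest class and 46.4%, 54.4%, 56.1% and 58.6% in the following ones. The median log2 fold change was -0.078 in the shortest class and 0.026 in the longest. The shift was seen in every library, since the median deviation of the shortest class from its mean was -0.046 to -0.026 at 25 nM RA and 0.027 to 0.051 in DMSO. Within IDs of 16 to 64 CPM alone, 33.4% of the called IDs rose in the shortest class and 57.9% in the longest. There, 593 of 1057 IDs were called in the shortest class and a smaller share, 705 of 1444, in the longest. RNA quality was not measured in the sources used here, and its part in this was not tested.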

How the data were processed

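The authors deposited expected counts per gene ID as whole numbers and TPM values for the same IDs. The tools were Bowtie2 and RSEM 1.3.0, per the submitters' processing notes, with the order, genome build and annotation not given in the sources used here. Such counting shares reads among similar copies, so counts of near-identical genes are estimates. TPM carries no depth. The row without a gene held 0 counts and was left out.

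Counts were already whole. In R 4.3.3 with edgeR 4.0.16, IDs were filtered with filterByExpr (minimum count 10), scaled by TMM factors, and fitted with a robust quasi-likelihood model of 4 groups over all 12 libraries. The Benjamini-Hochberg adjustment ran over 24454 IDs. Standard errors came from the model's information and quasi-likelihood dispersion, with counting error as the lower bound. CPM used the scaled library sizes, and log2 CPM a prior count of 2. The edgeR fit, test and standard errors were tried on simulated counts with far fewer changed IDs than were called here. The switch, floor, overlap and length steps were not tried in this way.

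Between replicates the chi-square over its degrees of freedom was 12.5 to 46.5 at 25 nM RA and 2.88 to 5.46 in DMSO. All were above sampling noise, so none was treated as a copy of another. The highest value was that of 25 nM replicates 1 and 3. Intervals and floors of 3 counts cover counting error only. Named IDs were the largest rise and fall by fitted log2 fold change, and the highest ID switched on and off. The rise and fall had an adjusted p under 0.05, at least 5 CPM in the higher group and no overlap. The comparison, lists and limits were chosen with earlier results of these data known. Gene lists and cell type markers were not run without gene names. Alternatives used DESeq2 1.42.0 and limma 3.58.1 on log2 TPM.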

Additional observations from a re-analysis of the deposited data

How the results depend on the processing

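Of 180 alternative counts, 162 lay within 1.5 times the counts reported. Against 1.2-fold, edgeR's glmTreat called 4153 IDs, 2274 higher and 1879 lower. Limma on log2(TPM + 1) gave 239 changes of at least 2-fold up and 300 down, on log2(TPM + 0.1) 479 and 568, and without the filter 234 and 305, with 3174 IDs called higher. These fits differ in test, unit and scale, and the cause was not tested. IDs switched on and off numbered 2 and 21 with off at 0 counts, 7 and 100 with off under 0.25 CPM, 5 and 93 with on from 0.5 CPM, and 0 and 20 with on from 2 CPM; by TPM 4 were switched on. Here the limits themselves set the counts.

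DESeq2 called 8919 IDs, and the fit of the 6 libraries compared 9714, of which 9429 were shared with the 12-library fit in the same direction. With a replicate block the counts were 9701 over 12 libraries and 9611 over 6. Libraries of the same number deviated together only weakly (correlation 0.0204 to 0.056), though more than those of different numbers (-0.0351 to 0.0114). The numbers entered no other fit as pairs. Without 1 library in turn, 8671 to 8770 IDs were called, 4278 to 4422 higher and 4347 to 4481 lower, 781 to 829 and 1088 to 1140 of at least 2-fold. Against 200 nM RA 3485 to 5142 were called and against 500 nM RA 3140 to 4256. XBXL10_1g11826 was not called by edgeR in the 12-library fit and was called by DESeq2 (adjusted p = 0.000211), by all 3 limma fits and with the replicate block in 6 libraries; its adjusted p was 9.87e-18 to 0.223 over its alternatives. The other named IDs kept direction and call under all alternatives run. Without the IDs of identical counts, which was added after seeing the data, 9759 IDs were called. IDs under 1 CPM, with a median standard error of 0.503, are where depth limits the result.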

Other observations

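The effective length implied by counts and TPM can also differ between the groups, when the mix of transcripts assigned to an ID differs. This was looked at after seeing the data and was not tested. Of 15186 IDs with such a length, 3669 varied by at least 0.1 on the log2 scale over the 6 libraries, while the median range was 0.011. In 135 IDs the mean length differed at least 1.25-fold between 25 nM RA and DMSO with no overlap of the 3 and 3 values, being longer at 25 nM RA in 53 and shorter in 82. In 26 the difference was at least 2-fold. Of these 135 IDs, 51 were called in edgeR for their total count and 84 were not, so 37.8% were called, beside 47.6% of all IDs with a length.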
